A study of Homo sapiens with 8 samples.

Results

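Aminoacyl-tRNA synthetases attach each amino acid to its tRNA and so supply the ribosome with charged tRNAs. Human cells carry a cytosolic set of these enzymes and a mitochondrial set, both encoded in the nucleus and mostly by separate genes. Some of the cytosolic genes are known as targets of ATF4. This transcription factor is translated when the initiation factor eIF2 is phosphorylated under amino acid shortage or endoplasmic reticulum stress. Several cytosolic enzymes sit together in a multi-synthetase complex, and the mitochondrial ones serve the translation of the few proteins that the mitochondrial genome encodes.

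The genes described here were taken by name from a list of 35 synthetase genes, 19 with a cytosolic product (names ending in 1, with FARSA and FARSB) and 16 with a mitochondrial product (names ending in 2). The table of 13730 genes had entries for 33 of them, 18 cytosolic and 15 mitochondrial. VARS1 and VARS2, the valyl-tRNA synthetases, were not analysed here. All 33 passed the filter on low expression, and the lowest mean level among them was 3.44 on the log2 CPM scale (CPM, counts scaled to library size). Gene positions are those of GENCODE release 29 on GRCh38.

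RNA came from LN229-TAZ(4SA), a human glioblastoma cell line named in the labels by a TAZ(4SA) construct, which all groups share. The cells were TrxR1 knockout (KO) or control (EV) cells, each in regular medium (DMEM with fetal bovine serum) or under glucose deprivation (Glu-), with 2 libraries in each of the 4 groups. TrxR1 is the cytosolic thioredoxin reductase, which keeps thioredoxin reduced. The names a and b for a group's libraries carry no pairing. The number of knockout clones and the time without glucose are not given in the labels, and a difference between clones cannot be told apart from the knockout itself. Nor do the labels state that a group's libraries were separate cultures; the p-values rest on the spread between libraries, which may be technical. Columns whose header ends in GlcN were read as glucose-deprived, a reading the labels leave unexplained.

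Summed reads ran from 70083018 to 107229069 per library, and 1 read was worth 0.00948 to 0.0143 CPM. TXNRD1, the gene of TrxR1, was at 263 and 261 CPM in the EV and 245 and 249 CPM in the KO libraries in regular medium, and at 509 and 493 CPM in EV and 370.4 and 351 CPM in KO libraries under deprivation, so its mRNA level does not by itself mark the knockout. TXNIP, which glucose induces, was at 85.5 and 87.1 CPM in the EV regular and 11.04 and 9.91 CPM in the EV deprived libraries. All 8 glial and glioma markers had an entry and summed to 4908 to 5286 CPM per library, most of it VIM and CD44. Single markers differed between groups: under deprivation in EV cells SOX2 changed by -1.72 ± 0.045, NES by -1.03 ± 0.033 and OLIG2 by 1.24 ± 0.068, and between KO and EV cells in regular medium SOX2 by -0.51 ± 0.045, S100B by -0.46 ± 0.057 and EGFR by 0.29 ± 0.035 on the log2 scale (all called at an adjusted p under 0.05). Of 11 markers of leukocytes, neurons and endothelium 4 had an entry, with a sum of 19.8 to 22.3 CPM in regular and 53.0 to 55.1 CPM in deprived libraries, most of it SYT1. The part of any of these markers in the results was not tested. Levels are shares of the sequenced reads, so fewer cells of a type and less RNA per cell cannot be told apart.

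Promoters are shown first because 7 of the cytosolic genes carry a match to the C/EBP-ATF element, the site at which ATF4 is known to bind with C/EBP factors. The windows were RefSeq's on GRCh38.p14, from 250 bases before to 50 after each annotated start, and 30 of the 33 genes had at least 1 (16 cytosolic and 14 mitochondrial). LARS1, YARS1 and AARS2 had no entry. The letters TGATGNAA, searched on both strands, were found for 7 of 16 cytosolic genes and for 1 of 14 mitochondrial genes. Of all 35116 windows 3.62% held them, as did those of 2.77% of the 10461 tested genes with a window. Each line gives the gene, its place and strand, and 30 bases read 5′ to 3′ on the gene's strand, with the match in capitals.

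AARS1, chr16:70289675-70289704, minus strand: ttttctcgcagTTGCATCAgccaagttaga
CARS1, chr11:3057407-3057436, minus strand: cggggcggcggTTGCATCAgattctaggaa
GARS1, chr7:30594834-30594863, plus strand: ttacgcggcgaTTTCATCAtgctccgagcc
IARS1, chr9:92293692-92293721, minus strand: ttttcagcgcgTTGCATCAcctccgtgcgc
MARS1, chr12:57488053-57488082, plus strand: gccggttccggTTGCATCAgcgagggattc
NARS1, chr18:57621804-57621833, minus strand: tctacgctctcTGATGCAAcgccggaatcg
TARS1, chr5:33440956-33440985, plus strand: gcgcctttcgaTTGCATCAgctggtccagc
YARS2, chr12:32756076-32756105, minus strand: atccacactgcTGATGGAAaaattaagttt

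The capitals read TTGCATCA in 5 of the cytosolic genes. GARS1 held TTTCATCA, and NARS1 held the same element as AARS1 in the other orientation. In the cytosolic genes the match lay close to the annotated start except in AARS1. Its first base was 2 bases before the start in CARS1, 4 in MARS1, 13 in IARS1 and 33 in GARS1, and 187 bases before it in AARS1. In TARS1 and NARS1 it lay 2 and 14 bases after the start. The mitochondrial gene YARS2 held its match 197 bases before the start. A match is a description of the letters and not a measured binding site. CARS1, GARS1 and TARS1 had more than 1 window, which gives a gene more chances of a match.

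Most cytosolic synthetase mRNAs were higher under glucose deprivation than in regular medium, in EV as in KO cells. Of 18 cytosolic genes 13 rose and 4 fell in EV cells (limma, adjusted p under 0.05), where 37.5% of all genes tested rose and 38.7% fell, so the share that rose, 72.2%, lay above the share of all genes and the share that fell, 22.2%, below it. In KO cells 13 rose and 4 fell as well, against 36.5% and 36.8% of all genes, and the names were the same in both cell types. The median log2 fold change of the cytosolic genes was 0.56 in EV and 0.54 in KO cells, beside -0.011 and -0.0015 over all genes.

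**Figure D1:**
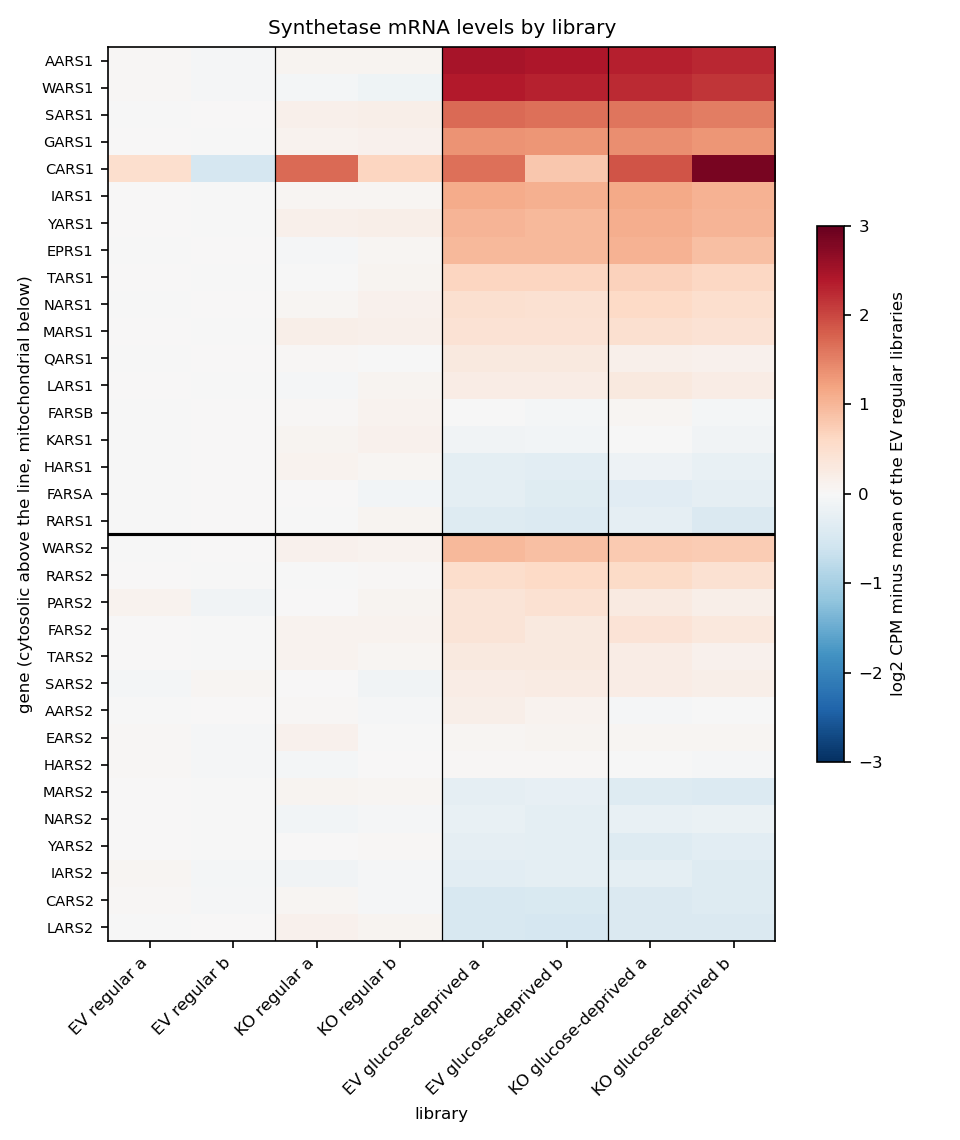
Level of each synthetase mRNA in the 8 libraries (columns), as log2 CPM minus the mean of the EV regular libraries, with cytosolic genes above the line and mitochondrial genes below it. The deprived libraries are red for AARS1 to LARS1 and pale blue for HARS1 to RARS1, while the mitochondrial genes split between WARS2 at the top and LARS2 at the bottom.

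AARS1, alanyl-tRNA synthetase (chromosome 16, 70252295 to 70289543, minus strand), had the largest fold change of the 33 genes in EV cells. Its level was 123 and 118 CPM in the EV regular libraries and 128 and 127 CPM in the KO regular ones, and 670.2 and 644 CPM and 604 and 579 CPM in the deprived EV and KO libraries. The deprived libraries lay far above the regular ones with no overlap, a log2 fold change of 2.45 ± 0.037 in EV (SE; adjusted p = 5.75e-12) and 2.21 ± 0.037 in KO cells (adjusted p = 1.17e-11).

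WARS1, the cytosolic tryptophanyl-tRNA synthetase (chromosome 14, 100333788 to 100376805, minus strand), is also known as an interferon-induced gene. It went from 119 and 114 to 603 and 578 CPM in EV and from 112 and 107 to 549 and 515 CPM in KO libraries. All 4 deprived libraries were above all 4 regular ones, by 2.34 ± 0.043 on the log2 scale in EV (adjusted p = 2.00e-11) and 2.28 ± 0.043 in KO cells (adjusted p = 2.35e-11). Its RefSeq windows held no match to the C/EBP-ATF letters, which says only that they are not in those windows.

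SARS1, seryl-tRNA synthetase (chromosome 1, 109213918 to 109238169, plus strand), rose from 170.3 and 171 to 551 and 538 CPM in EV libraries, a log2 fold change of 1.67 ± 0.034 (adjusted p = 4.62e-11). In KO libraries it rose from 189 and 193 to 517 and 493 CPM, by 1.40 ± 0.034 (adjusted p = 1.81e-10). The KO libraries started higher and ended lower than the EV ones, which the interaction described below measures.

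GARS1, glycyl-tRNA synthetase, whose gene gives both the cytosolic and the mitochondrial enzyme (chromosome 7, 30594681 to 30634033, plus strand), stood at 264 and 260.5 CPM in EV and 284 and 288 CPM in KO regular libraries. Under deprivation it stood at 671 and 653 CPM in EV and 689 and 654 CPM in KO libraries, higher by 1.34 ± 0.035 in EV (adjusted p = 2.77e-10) and 1.23 ± 0.035 in KO cells (adjusted p = 5.04e-10) on the log2 scale. Regular and deprived libraries did not overlap.

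IARS1, isoleucyl-tRNA synthetase, YARS1, tyrosyl-tRNA synthetase, and EPRS1, the fused glutamyl-prolyl-tRNA synthetase, each reached about the same fold. IARS1 went from 228 and 224 to 491 and 473 CPM in EV and from 233 and 235 to 497 and 464 CPM in KO libraries, by 1.09 ± 0.038 and 1.04 ± 0.038 on the log2 scale. YARS1 went from 207 and 204 to 419.7 and 404 CPM in EV and from 229 and 232 to 439 and 414 CPM in KO libraries, by 1.00 ± 0.037 and 0.89 ± 0.037. EPRS1 went from 287 and 288 to 569 and 564 CPM in EV and from 281 and 302 to 589.8 and 541 CPM in KO libraries, by 0.98 ± 0.046 and 0.95 ± 0.046. For each of the 3 genes the highest regular library was below the lowest deprived one. Exons of YARS1 overlap those of S100PBP on the opposite strand by 396 bases, 12.2% of its exon length, and the library preparation does not mark strand.

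TARS1, threonyl-tRNA synthetase, rose less, from 308 and 302 to 474 and 475 CPM in EV libraries (0.64 ± 0.041) and by 0.62 ± 0.041 in KO cells. NARS1, asparaginyl-tRNA synthetase, rose from 328 and 329 to 462 and 453 CPM in EV libraries (0.48 ± 0.037) and by 0.45 ± 0.037 in KO cells. MARS1, methionyl-tRNA synthetase, rose from 233 and 230.2 to 314 and 311 CPM in EV libraries (0.43 ± 0.032) and by 0.29 ± 0.032 in KO cells. All 3 genes carry the element shown above, and their fold changes lay below those of AARS1 and IARS1, which carry it too. Differences between genes were not tested. Exons of MARS1 overlap by 62 bases those of DDIT3 on the opposite strand, a stress gene that went from 17.4 and 17.6 to 435 and 417 CPM in EV libraries, and the part of its reads in the MARS1 values was not tested.

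QARS1, glutaminyl-tRNA synthetase, and LARS1, leucyl-tRNA synthetase, made the smallest rises. QARS1 was at 145 and 147 CPM in EV regular and 177 and 177 CPM in EV deprived libraries, a change of 0.28 ± 0.032 (adjusted p = 1.54e-05), and changed by 0.13 ± 0.032 in KO cells (adjusted p = 0.00501). LARS1 went from 336 and 330.2 to 388 and 391 CPM in EV libraries (0.23 ± 0.041, adjusted p = 4.51e-04) and changed by 0.24 ± 0.041 in KO cells. These changes are smaller than the median absolute change of all genes, 0.34 in EV and 0.31 in KO cells.

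**Figure D2:**
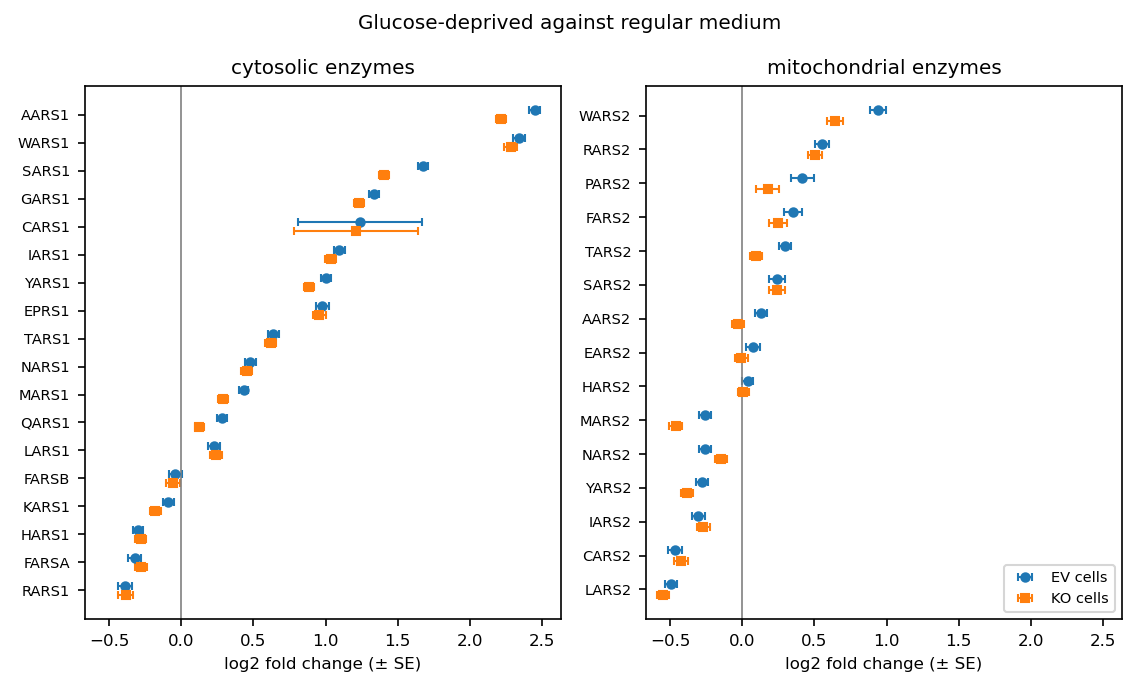
Log2 fold change of glucose-deprived against regular medium for each gene, with limma standard errors, in EV cells (circles) and KO cells (squares), cytosolic enzymes on the left and mitochondrial on the right. Cytosolic genes extend to 2.45 (AARS1, EV cells), whereas no mitochondrial gene passes 0.94 (WARS2, EV cells).

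CARS1, cysteinyl-tRNA synthetase, was the least abundant and the least reproducible cytosolic gene. Its libraries were at 7.51 and 3.80 CPM (EV regular), 17.2 and 8.28 CPM (KO regular), 16.9 and 9.41 CPM (EV deprived) and 19.9 and 38.6 CPM (KO deprived). The 2 libraries of a group differed by 1.80- to 2.08-fold, whereas in every other synthetase gene they differed by at most 1.17-fold. Within each cell type regular and deprived libraries did not overlap, but KO regular a lay above both EV deprived libraries. The rise with deprivation was 1.24 ± 0.43 in EV (adjusted p = 0.0218) and 1.21 ± 0.43 in KO cells (adjusted p = 0.0250), and both calls were lost without the variance trend. They were also lost without EV regular b or EV deprived a (for EV cells) and without KO regular b or KO deprived b (for KO cells), with log2 fold changes between 0.75 and 1.73 in EV and between 0.68 and 1.74 in KO cells. Exons of CARS1 overlap those of its antisense gene CARS-AS1 by 176 bases, 5.6% of its exon length, and reads from that overlap cannot be told apart.

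The 4 cytosolic genes that fell changed by at most 0.39 on the log2 scale. Of these only RARS1 passed the median absolute change of all genes, 0.34 in EV and 0.31 in KO cells. RARS1, arginyl-tRNA synthetase, was at 205 and 208 CPM in EV regular and 159 and 156 CPM in EV deprived libraries, a change of -0.39 ± 0.051 (adjusted p = 4.02e-05), and changed by -0.39 ± 0.051 in KO cells (adjusted p = 4.81e-05). FARSA, the alpha subunit of cytosolic phenylalanyl-tRNA synthetase, was at 221 and 222 CPM in EV regular and 181 and 174 CPM in EV deprived libraries (-0.32 ± 0.043, and -0.28 ± 0.043 in KO cells). FARSB, its beta subunit, was at 99.8 and 100.2 CPM in EV regular and 99.1 and 95.3 CPM in EV deprived libraries, and its change was not called in EV (-0.041 ± 0.046, adjusted p = 0.43) or KO cells (-0.057 ± 0.046, adjusted p = 0.28), though without KO deprived a it was called lower in KO cells (-0.12, adjusted p = 0.0343). The subunits of 1 enzyme thus had different values, and that difference was not tested.

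HARS1, histidyl-tRNA synthetase, fell from 200.4 and 203 to 165 and 162 CPM in EV and from 219 and 211 to 181 and 173 CPM in KO libraries (-0.30 ± 0.035 and -0.28 ± 0.035). KARS1, lysyl-tRNA synthetase, whose gene gives the cytosolic and the mitochondrial enzyme, was at 263 and 265 CPM in EV regular and 247 and 249 CPM in EV deprived libraries, a change of -0.091 ± 0.037 that was barely called (adjusted p = 0.0463). In KO cells it changed by -0.18 ± 0.037 (adjusted p = 0.00136). The KARS1 call in EV cells was lost under 6 of 13 alternative settings, among them median-of-ratios scaling and the omission of any of the 4 EV libraries.

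Cytosolic genes that rose and genes that fell were found inside and outside the multi-synthetase complex and in both enzyme classes. The counts that follow are read against the 37.5% of all genes that rose and the 38.7% that fell in EV cells. Of the 7 genes of the complex 5 rose (EPRS1, IARS1, LARS1, MARS1 and QARS1) and 2 fell (KARS1 and RARS1) in EV cells, 71.4% and 28.6%, with a median of 0.28. Of the 11 outside it 8 rose and 2 fell, 72.7% and 18.2%, with a median of 1.00. The classes are the unrelated catalytic folds of these enzymes. Of 8 class I enzymes 7 rose and 1 fell, 87.5% and 12.5%, and of 9 class II enzymes 5 rose and 3 fell, 55.6% and 33.3%, the last near the share of all genes, with EPRS1, which holds both folds, left aside. Without GARS1 and KARS1, which serve both compartments, 12 of 16 rose and 3 fell, 75.0% and 18.8%, with the same median of 0.56. The counts in KO cells were the same for each of these groups.

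Of the 16 cytosolic genes with a promoter window, the 7 with the C/EBP-ATF match all rose, with a median log2 fold change of 1.09 in EV and 1.04 in KO cells. Among the 9 without it 4 rose (EPRS1, QARS1, SARS1 and WARS1) and 4 fell. Across all genes with a window, 290 held the letters and 53.8% of these rose in EV cells, against 37.6% of all genes with a window, and in KO cells 51.4% against 36.5%. YARS2, the mitochondrial gene with a match, was at 35.3 and 34.9 CPM in EV regular and 29.2 and 28.6 CPM in EV deprived libraries and fell by 0.28 ± 0.043. Other motifs were searched as well. The E-box CACGTG was found in the windows of 1 cytosolic (IARS1) and 3 mitochondrial genes (CARS2, EARS2 and MARS2), and for 12.6% of the tested genes with a window. The antioxidant element TGACNNNGC was found for 4 cytosolic genes (GARS1, KARS1, TARS1 and WARS1) and 2 mitochondrial ones (NARS2 and RARS2), and for 19.5% of those tested genes. The NRF1 site GCGCANGCG was found for 3 of each (FARSB, SARS1 and TARS1, and IARS2, MARS2 and PARS2), and for 16.8% of them. At these gene numbers the counts for the 3 motifs are near the shares of all tested genes. All were searched on both strands.

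Mitochondrial synthetases went both ways under deprivation. Of 15 genes 7 rose and 6 fell in EV cells, shares of 46.7% and 40.0% against the 37.5% and 38.7% of all genes, so neither count stands far from the background. In KO cells 4 rose and 6 fell, 26.7% and 40.0% against 36.5% and 36.8%. The median log2 fold change was 0.074 in EV and -0.0053 in KO cells, and no mitochondrial gene rose or fell by 1 on the log2 scale.

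WARS2, mitochondrial tryptophanyl-tRNA synthetase (chromosome 1, 119031216 to 119140671, minus strand), had the largest rise. It went from 9.37 and 9.59 to 18.6 and 17.8 CPM in EV and from 10.4 and 10.2 to 16.2 and 16.04 CPM in KO libraries, by 0.94 ± 0.055 (adjusted p = 8.27e-08) and 0.65 ± 0.055 (adjusted p = 1.63e-06) on the log2 scale. All deprived libraries were above all regular ones, and both genes for tryptophanyl-tRNA synthetase therefore rose.

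RARS2, the mitochondrial arginyl-tRNA synthetase, rose from 36.4 and 35.3 to 51.4 and 53.9 CPM in EV and from 35.5 and 36.99 to 53.2 and 49.5 CPM in KO libraries (0.55 ± 0.049 and 0.50 ± 0.049), while its cytosolic counterpart RARS1 fell. FARS2, the mitochondrial phenylalanyl-tRNA synthetase, rose from 9.45 and 9.35 to 12.4 and 11.6 CPM in EV libraries (0.35 ± 0.063) and by 0.25 ± 0.063 in KO cells. SARS2, the mitochondrial seryl-tRNA synthetase, rose by 0.24 ± 0.055 in EV and 0.24 ± 0.055 in KO cells, but 67.4% of its exon length lies within the read-through gene AC011455.2 on the same strand, and its reads are uncertain. PARS2 for proline (0.41 ± 0.079), TARS2 for threonine (0.29 ± 0.041) and AARS2 for alanine (0.13 ± 0.042) rose in EV cells and were not called in KO cells (0.18 ± 0.079, 0.095 ± 0.041 and -0.03 ± 0.042). In KO cells PARS2 was called without EV regular a or EV regular b, and TARS2 without KO deprived b. For none of the 3 did the difference between cell types pass the test (adjusted p = 0.22, 0.0796 and 0.14). The AARS2 call was lost without EV regular a, EV regular b or EV deprived a.

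The 6 mitochondrial genes that fell did so in both cell types. LARS2, mitochondrial leucyl-tRNA synthetase, fell most. Its libraries were at 52.2 and 53.01 CPM (EV regular), 37.4 and 37.3 CPM (EV deprived), 57.8 and 55.4 CPM (KO regular) and 38.7 and 38.7 CPM (KO deprived), changes of -0.49 ± 0.039 (adjusted p = 9.15e-07) and -0.55 ± 0.039 (adjusted p = 4.45e-07) with no overlap between media. CARS2, the mitochondrial cysteinyl-tRNA synthetase, which is also known for making cysteine persulfides, went from 55.5 and 52.4 to 38.6 and 39.6 CPM in EV libraries (-0.47 ± 0.047, and -0.42 ± 0.047 in KO cells). IARS2 for isoleucine, the most abundant of the 15 per length, went from 226 and 211 to 174 and 179.5 CPM in EV libraries (-0.30 ± 0.045, and -0.27 ± 0.045 in KO cells). YARS2 for tyrosine, NARS2 for asparagine and MARS2 for methionine changed by -0.28 ± 0.043, -0.26 ± 0.041 and -0.26 ± 0.044 in EV cells, and by -0.38 ± 0.043, -0.15 ± 0.041 and -0.46 ± 0.044 in KO cells. EARS2 for glutamate (0.074 ± 0.047 and -0.0053 ± 0.047) and HARS2 for histidine (0.039 ± 0.039 and 0.0062 ± 0.039) were not called in EV or KO cells. By class, 2 of 8 class I genes rose and 5 fell in both cell types, so the share that fell, 62.5%, lay above the 38.7% and 36.8% of all genes. Of 7 class II genes 5 rose and 1 fell in EV cells, 71.4% and 14.3%, whereas in KO cells 2 rose, 28.6%, and 1 fell, beside the 37.5% and 36.5% of all genes that rose in EV and KO cells.

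HARS1 and HARS2 begin 85 bases apart on opposite strands of chromosome 5, back to back. The stretch between their RefSeq starts is shown on the plus strand, with the positions of the first base of HARS1 (left, transcribed leftwards) and of HARS2 (right, transcribed rightwards) in capitals, both as plus-strand letters.

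HARS1 and HARS2, chr5:140691370-140691455, plus strand: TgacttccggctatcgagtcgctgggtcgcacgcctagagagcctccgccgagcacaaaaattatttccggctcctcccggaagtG

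HARS2 was at 81.9 and 78.4 CPM in EV regular and 82.3 and 82.3 CPM in EV deprived libraries, and at 77.1 and 80.2 CPM in KO regular and 80.1 and 77.9 CPM in KO deprived libraries. Its changes were not called, while HARS1 fell in both cell types. The GENCODE exons of the genes overlap by 437 bases, 10.3% of the exon length of HARS1, and reads from that overlap cannot be told apart.

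Summed over the 18 cytosolic genes, the synthetase mRNAs made up 3745 and 3720.4 CPM in EV regular libraries, 3889 and 3962 CPM in KO regular, 6658 and 6507 CPM in EV deprived, and 6679 and 6342 CPM in KO deprived libraries. The deprived sums were 1.76-fold the regular ones in EV and 1.66-fold in KO cells, and the ranges did not overlap. The 15 mitochondrial genes summed to 771 and 747 CPM, 758 and 761 CPM, 723 and 727 CPM, and 711 and 693 CPM in the same order, which is 0.956-fold in EV and 0.924-fold in KO cells. The deprived mitochondrial sums lay below the regular ones in each cell type by a margin that is small beside the cytosolic rise. A sum weighs abundant genes most, and IARS2 had the highest level of the 15. IARS2 alone went from a mean of 218 to 177 CPM in EV cells, where the mean sum went from 759 to 725 CPM. In KO cells it went from 209 to 173 CPM and the sum from 759 to 702 CPM. The lower sums are thus not a trait of each mitochondrial gene.

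**Figure D3:**
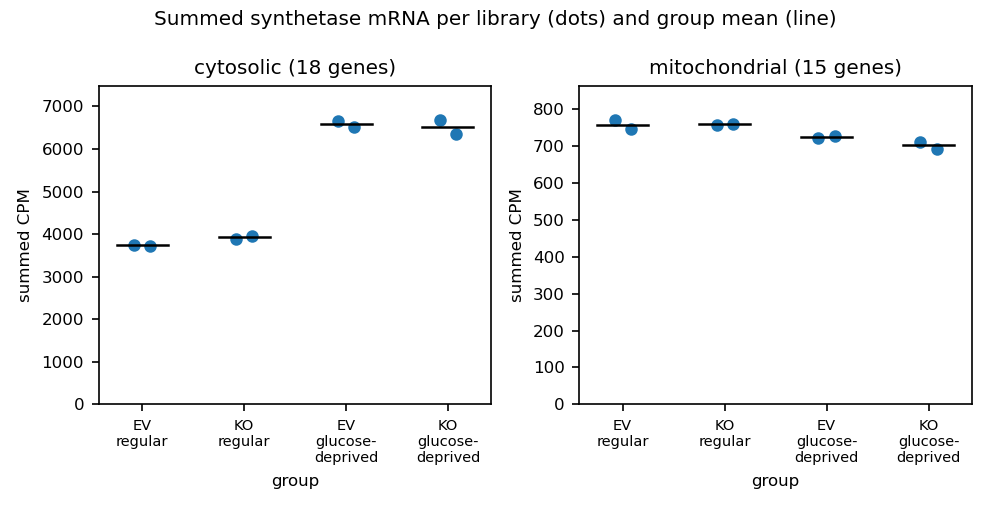
Summed CPM of the 18 cytosolic (left) and 15 mitochondrial genes (right) in each library (dots), with the group mean as a line and each axis starting at 0. The cytosolic sum lies between 3720.4 and 3962 in regular and between 6342 and 6679 in deprived libraries, while the mitochondrial sum lies between 693 and 771 throughout.

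The enzymes for 1 amino acid can be compared in pairs, 16 in all, by the log2 ratio of cytosolic to mitochondrial CPM in each library. The size of a ratio depends on the lengths of the genes, so its shift between media is given. The pairs are not all separate, since EPRS1 is paired with EARS2 and with PARS2, and FARS2 with FARSA and with FARSB. GARS1, KARS1 and QARS1 are in no pair. The shift was above 0 in 12 of 16 pairs in EV and in KO cells, with medians of 0.73 and 0.78. Ratios were not formed for pairs of other genes, so no background stands beside these counts. Since 37.5% of all genes rose and 38.7% fell in EV cells, pairs of other genes may shift between media too. Alanine had the largest shift, 2.32 in EV and 2.24 in KO cells, its log2 ratio going from 1.23 and 1.17 to 3.51 and 3.52 in the EV libraries. Shifts over 1 were also seen for cysteine (1.71 and 1.64, with the poor reproducibility of CARS1) and serine (1.43 and 1.16, with the uncertain reads of SARS2). The same held for isoleucine (1.40 and 1.31), tryptophan (1.39 and 1.63) and tyrosine (1.28 and 1.27). For isoleucine and tyrosine, and for cysteine with the limit just given, the cytosolic gene rose while the mitochondrial gene fell. Leucine, methionine and asparagine had the same opposed directions with smaller shifts. For tryptophan and serine both genes rose.

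The 4 pairs that moved the other way were those of RARS1 with RARS2 (-0.94 in EV and -0.89 in KO cells), FARSA with FARS2 (-0.67 and -0.52), FARSB with FARS2 (-0.39 and -0.30) and HARS1 with HARS2 (-0.34 and -0.29). For arginine the log2 ratio went from 2.50 and 2.55 to 1.63 and 1.54 in the EV libraries. Arginine and phenylalanine were the amino acids for which a cytosolic gene fell and the mitochondrial gene rose.

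**Figure D4:**
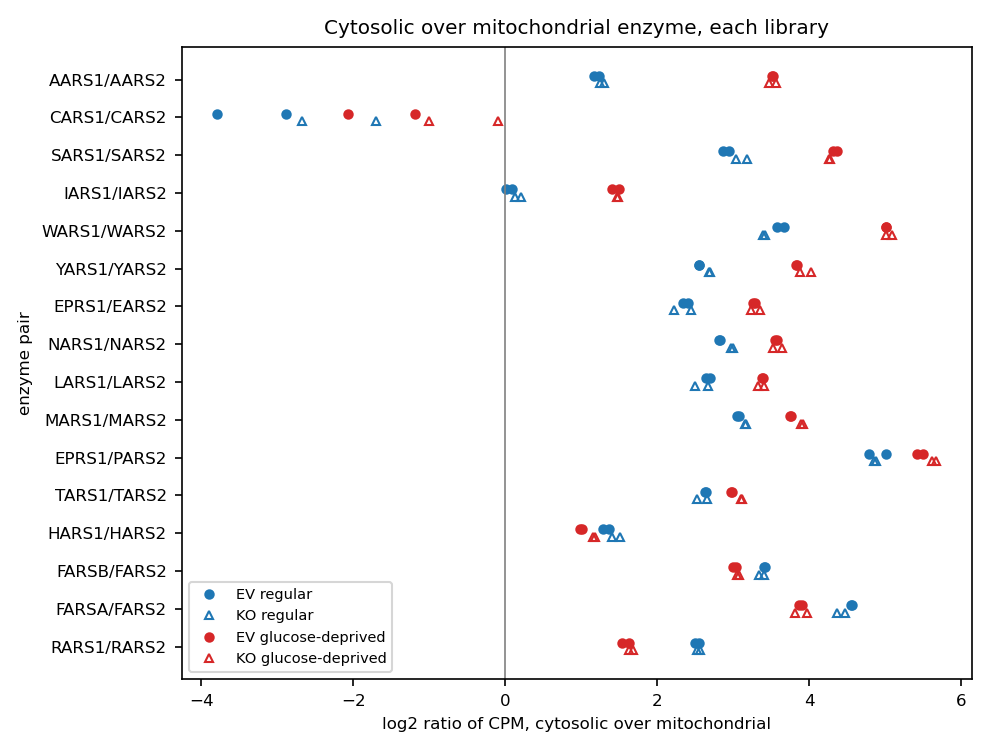
Log2 ratio of cytosolic to mitochondrial CPM for 16 enzyme pairs in each library, with regular medium in blue, deprived medium in red, EV cells as filled circles and KO cells as open triangles. Within each cell type red points lie to the right of blue ones in 12 pairs and to the left for HARS1, FARSB, FARSA and RARS1 with their mitochondrial counterparts. Pairs of other genes were not counted beside these.

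Per length (CPM per kilobase of annotated exon), the median cytosolic gene was at 65.2 in EV regular, 69.9 in KO regular, 103 in EV deprived and 104 in KO deprived libraries. The median mitochondrial gene was at 13.6, 13.7, 13.3 and 13.0 CPM per kilobase. In EV regular libraries KARS1 (108 ± 0.80, SD, n = 2), FARSA (106 ± 0.15) and NARS1 (106 ± 0.25) were the most abundant cytosolic genes per length, FARSA and NARS1 differing by less than their spread, and CARS1 (1.81 ± 0.84) was the lowest. Under deprivation SARS1 (279.9 in EV cells), GARS1 (249.6) and AARS1 (189) were the highest on that scale. Among mitochondrial genes IARS2 was highest in EV regular libraries (61.3 ± 2.8) and WARS2 lowest (3.34 ± 0.054). IARS2 stood above the cytosolic IARS1 (47.1 ± 0.60) there on the per-length scale and below it under deprivation (49.7 against 101 in EV cells).

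Apart from CARS1, synthetase mRNAs differed little between KO and EV cells. CARS1 had the largest difference, 1.16 ± 0.43 in regular medium (adjusted p = 0.13) and 1.13 ± 0.43 under deprivation (adjusted p = 0.0898), and was called in neither, with the wide spread between libraries given above. It was called under deprivation without KO deprived a (1.61, adjusted p = 0.0375). In regular medium 3 of 18 cytosolic genes were called higher in KO cells, 16.7%, where 3.87% of all genes were, and 0 were called lower, where 3.38% were (0 at an unadjusted p under 0.05 and 0 with limma-voom). At an unadjusted p under 0.05, 9 of 18 were higher, where 11.8% of all genes were. The log2 fold change was above 0 in 16 of 18. Of the 15 mitochondrial genes 0 were called in each direction with limma and 0 with limma-voom. At an unadjusted p under 0.05, 1 of these was higher and 0 lower, where 11.8% and 12% of all genes were. MARS1 was at 233 and 230.2 CPM in EV and 262 and 256 CPM in KO libraries (0.16 ± 0.032, adjusted p = 0.0148). SARS1 was at 170.3 and 171 CPM in EV and 189 and 193 CPM in KO libraries (0.16 ± 0.034, adjusted p = 0.0197), and YARS1 at 207 and 204 CPM in EV and 229 and 232 CPM in KO libraries (0.17 ± 0.037, adjusted p = 0.0240). In each the KO libraries lay above the EV ones. All 3 calls were lost without EV regular a, without EV regular b and without the variance trend, with a highest adjusted p of 0.156 for MARS1, 0.186 for SARS1 and 0.200 for YARS1. Those of MARS1 and YARS1 were also lost without KO regular a, those of SARS1 and YARS1 without KO regular b, and that of YARS1 without EV deprived b. Without KO deprived a or b GARS1 and KARS1 were called higher as well, and GARS1 also under median-of-ratios scaling.

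Under glucose deprivation 4 cytosolic genes were called lower in KO cells, 22.2%, beside 10.6% of all genes, and 1 was called higher, 5.56%, beside 9.04%. The lower count was also 4 of 18 at an unadjusted p under 0.05, near the 18.4% of all genes. There 2 of 18 were higher, where 15.8% of all genes were. QARS1 was at 177 and 177 CPM in EV and 161 and 158 CPM in KO deprived libraries (-0.15 ± 0.032, adjusted p = 0.00991). AARS1 differed by -0.15 ± 0.037 (adjusted p = 0.0177), WARS1 by -0.15 ± 0.043 (adjusted p = 0.0348) and SARS1 by -0.11 ± 0.034 (adjusted p = 0.0469), with KO below EV libraries in each. HARS1 was called higher (0.11 ± 0.035, adjusted p = 0.0492). Of the mitochondrial genes 2 of 15 were called lower, AARS2 (-0.15 ± 0.042, adjusted p = 0.0315) and WARS2 (-0.18 ± 0.055, adjusted p = 0.0466), 13.3% beside 10.6% of all genes. None was called higher with limma (0 at an unadjusted p under 0.05 and 0 with limma-voom). At an unadjusted p under 0.05, 5 of these 15 were lower, where 18.4% of all genes were. All 7 calls were lost without EV deprived a and without EV deprived b, and the QARS1 call under no other setting. Those of AARS1, SARS1, WARS1, AARS2 and WARS2 were also lost without KO deprived b, those of HARS1, AARS2 and WARS2 without KO deprived a, and those of HARS1, SARS1, WARS1, AARS2 and WARS2 without EV regular a or b. MARS2 was called lower without KO regular a or b, and TARS2 without KO deprived a.

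**Figure D5:**
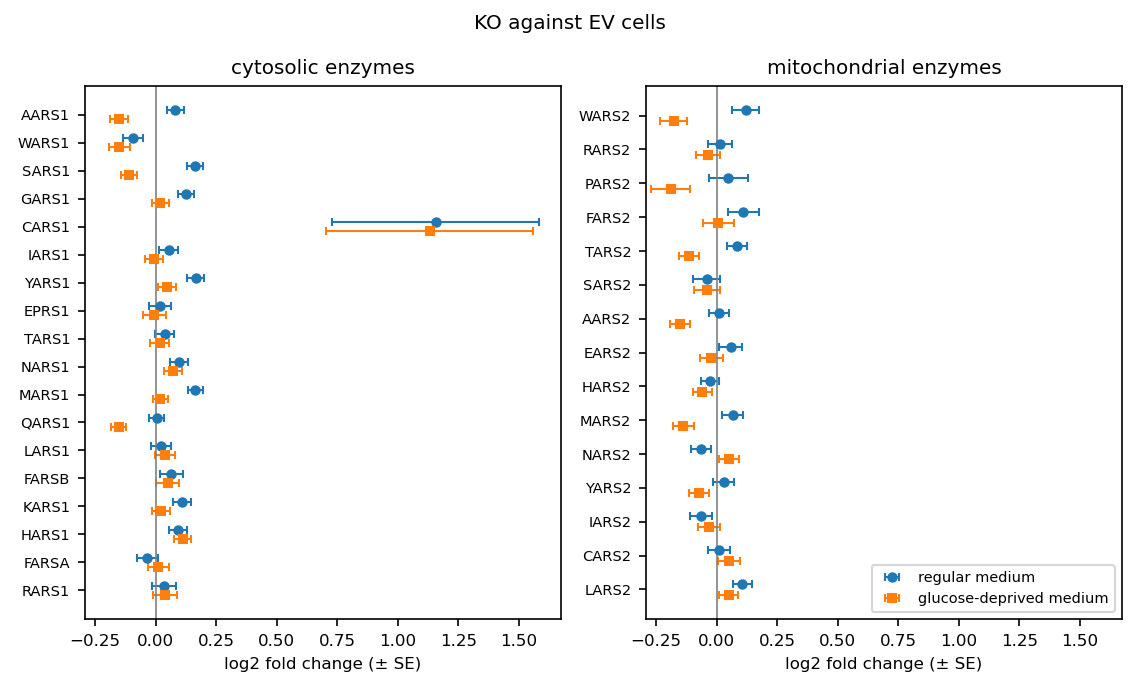
Log2 fold change of KO against EV cells for each gene with limma standard errors, in regular medium (circles) and under glucose deprivation (squares), cytosolic enzymes on the left and mitochondrial on the right. Apart from CARS1, whose errors are wide, every value lies within 0.19 of 0.

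Whether the deprivation effect itself differed between KO and EV cells was tested by the interaction. Among the cytosolic genes 2 of 18 were called, both with a smaller rise in KO cells, 11.1% beside 2.01% of all genes called in that direction, and 0 were called in the other direction, where 2.31% of all genes were (0 at an unadjusted p under 0.05 and 0 with limma-voom). SARS1 had an interaction of -0.27 ± 0.048 (adjusted p = 0.0128) and AARS1 of -0.23 ± 0.052 (adjusted p = 0.0351). Of the 15 mitochondrial genes 0 were called with limma and 0 with limma-voom. At an unadjusted p under 0.05, 4 of these 15 were negative and 0 positive, and 5 of the 18 cytosolic genes were negative. Over all genes 12.5% were negative and 11.7% positive at that threshold. WARS2 had the most negative value of the mitochondrial genes, -0.30 ± 0.077 (adjusted p = 0.0594). The AARS1 and SARS1 calls were each lost without the variance trend and without any of the 4 EV libraries, and that of AARS1 also without KO regular a or KO deprived b. Without KO deprived a the interactions of MARS1, QARS1 and TARS2 were called too, all negative.

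Among other genes that act on tRNA charging fewer were called than among the cytosolic synthetases, a difference that was not tested. Of 12 listed 10 were tested, and 3 rose (TARS3, DTD1 and, named after its values were seen, SEPSECS) and 2 fell (GATC and, named likewise, MTFMT) in EV cells under deprivation, shares of 30.0% and 20.0%, below those of all genes. TARS3, a threonyl-tRNA synthetase-like enzyme, changed by 0.57 ± 0.065, DTD1, which removes D-amino acids from tRNA, by 0.40 ± 0.04, and GATC, a subunit of the mitochondrial glutamyl-tRNA amidotransferase, by -0.38 ± 0.044.

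The non-enzymatic scaffolds of the multi-synthetase complex did not rise. EEF1E1 (AIMP3) was at 10.8 and 10.5 CPM in EV regular and 5.56 and 5.84 CPM in EV deprived libraries (-0.90 ± 0.073, adjusted p = 1.04e-06), and at 9.71 and 10.7 CPM in KO regular and 7.72 and 7.23 CPM in KO deprived libraries (-0.45 ± 0.073, adjusted p = 2.48e-04). Its fall was smaller in KO cells, with an interaction of 0.46 ± 0.10 (adjusted p = 0.0383). AIMP2 changed by -0.59 ± 0.046 in EV and -0.66 ± 0.046 in KO cells, and AIMP1 by -0.14 ± 0.063 (adjusted p = 0.0590) and -0.18 ± 0.063 (adjusted p = 0.0219). Thus 0 of 3 rose in EV cells with limma (0 at an unadjusted p under 0.05) and 2 fell, beside 37.5% and 38.7% of all genes, a list too short to read a share from.

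Of 6 cytosolic elongation factors, which carry charged tRNA to the ribosome and move the ribosome on, 5 rose in EV cells under deprivation, 83.3% beside 37.5% of all genes, among them EEF2 (0.56 ± 0.034), EEF1A1 (0.55 ± 0.034) and EEF1B2 (0.43 ± 0.039). EEF1D, the other one (named after its values were seen), was not called, and its libraries of the same group lay far apart. They were at 15.9 and 0.753 CPM in EV regular and 0.819 and 12.4 CPM in KO regular. In EV deprived they were at 1.62 and 0.875 CPM and in KO deprived at 0.692 and 1.38 CPM. Of 10 mitochondrial translation factors 4 rose, with GFM2 at 0.44 ± 0.042, and 3 fell, with MTRF1L at -0.31 ± 0.058, shares of 40.0% and 30.0% beside 37.5% and 38.7% of all genes, so the share that rose is at the background.

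Of 11 stress regulators known to act on synthetase genes or on eIF2, 8 rose and 2 fell in EV cells under deprivation, 72.7% and 18.2% beside 37.5% and 38.7% of all genes. ATF4 went from 354 and 361 to 913 and 882 CPM in EV libraries (1.33 ± 0.034) and from 430.2 and 426 to 896 and 862 CPM in KO libraries (1.04 ± 0.034), with an interaction of -0.29 ± 0.048 (adjusted p = 0.00854), the same direction as those of AARS1 and SARS1. ATF3 had an interaction of the opposite sign, 0.45 ± 0.056 (adjusted p = 0.00192). ATF4 was also higher in KO cells in regular medium (0.26 ± 0.034, adjusted p = 0.00153). ASNS, asparagine synthetase and a known ATF4 target, changed by 2.48 ± 0.042 in EV and 2.38 ± 0.042 in KO cells, of the size seen for AARS1 and WARS1. Its interaction was not called (-0.10 ± 0.059, adjusted p = 0.32). ATF5 and EIF2AK4, the genes that fell (named after their values were seen), changed by -0.99 ± 0.045 and -0.46 ± 0.034 in EV cells. EIF2AK4 encodes GCN2, the eIF2 kinase that senses uncharged tRNA.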

How the data were processed

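RNA-seq measured mRNA levels in 8 libraries of LN229-TAZ(4SA) cells, 2 in each of 4 groups. Per the labels' protocols TRIzol was used for extraction, and the SMART-Seq mRNA HT and Nextera XT kits, which do not mark strand, for the libraries. HISAT2, edgeR and GRCh38 are named in the submitters' processing notes, without versions or the annotation. The authors deposited log2 CPM values with a prior count averaging 2 reads, a scale read from the values: whole reads were recovered for 100% of values within a tolerance of 0.05. Printed CPM values have the offset of 0.023 CPM removed.

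The deposited log2 values of 13057 genes with a mean of at least 0 (673 were below) went into a linear model (limma 3.58.1, R 4.3.3) of the 4 groups with 4 residual degrees of freedom, a variance trend and 6.29 prior degrees of freedom. Each cell type was compared between media and each medium between cell types, and the interaction was tested (5 contrasts). Two-sided p-values were adjusted by Benjamini-Hochberg over all genes tested. Calls are adjusted p-values under 0.05. Errors are limma standard errors, on the deposited log2 scale. Beside 0 counts, those at an unadjusted p under 0.05 and by limma-voom are given, and some unadjusted counts also stand beside called genes. The steps were run on simulated data in which few genes changed and all shared a common spread. That setting differs from the deprivation contrasts and from genes such as CARS1, so it does not vouch for them.

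All synthetase genes could be named. Of other lists up to 3 called genes per contrast, by smallest adjusted p, were named, as well as TXNRD1, TXNIP, ARRDC4, ATF4, DDIT3 and ASNS. Some genes of these lists are not reported here. The members, lists and motifs were chosen with earlier results of these data known. ARRDC4, a glucose-induced gene, changed by -1.37 ± 0.12 in EV cells under deprivation. The alternatives were another scaling, no filter, no variance trend, a prior count of 5 reads, leaving out each library and, chosen after seeing the data, limma-voom on the recovered reads.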

Additional observations from a re-analysis of the deposited data

Results flagged for a closer look

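The deprivation effect differed between KO and EV cells, by the interaction test, for 2 synthetase genes. SARS1, seryl-tRNA synthetase, had an interaction of -0.272 ± 0.048 (SE, limma adjusted p = 0.0128): the KO libraries were above the EV ones in regular medium and below them under deprivation. AARS1, alanyl-tRNA synthetase, had an interaction of -0.233 ± 0.052 (limma adjusted p = 0.0351), with rises of 2.45 in EV and 2.21 in KO cells. ATF4 had an interaction of the same sign, -0.29 ± 0.048 (limma adjusted p = 0.00854), and its part in these values was not tested. Between KO and EV cells ATF4 was called in regular medium (0.26) but not under deprivation (-0.030, limma adjusted p = 0.57). AARS1 was called under deprivation (-0.15) but not in regular medium (0.082, limma adjusted p = 0.20). The interaction of ASNS, a known ATF4 target, was not called (-0.10 ± 0.059, limma adjusted p = 0.32). Over the 13 alternatives the value for SARS1 lay between -0.306 and -0.238 and that for AARS1 between -0.263 and -0.203. The adjusted p ran from 0.00333 to 0.0989 for SARS1 and from 0.0115 to 0.170 for AARS1.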

How the results depend on the processing

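The synthetase genes called under deprivation kept direction and call under every alternative run, except the calls of CARS1 (EV and KO cells) and of KARS1 and AARS2 (EV cells). In KO cells, calls were gained for FARSB, PARS2 and TARS2 with a library left out. The uncalled values of HARS2, EARS2, AARS2 and FARSB in KO cells changed sign with a library left out, that of HARS2 also under median-of-ratios scaling (from 0.0062 to -0.00051). No value called in the contrasts reversed. Without the variance trend 0 cytosolic genes were called higher for KO against EV in regular medium. Under deprivation 0 were then higher and 1 lower, 1 mitochondrial gene was lower, and 0 interactions were called. The 1 cytosolic gene higher in KO deprived cells (HARS1) was 0 with no filter and 0 with limma-voom, an alternative chosen after seeing the data.

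With each library left out in turn, which leaves an arm with 1 library assumed to vary like the other groups, 0 to 5 cytosolic genes were higher in KO cells in regular medium. Under deprivation 0 to 1 were higher and 0 to 4 lower, with 0 to 3 mitochondrial genes lower. Called interactions were 0 to 4 cytosolic and 0 to 1 mitochondrial. Median log2 fold changes of mitochondrial genes ran from 0.0156 to 0.0523 (KO against EV, regular), -0.0721 to -0.0157 (KO against EV, deprived), 0.0454 to 0.103 (deprivation, EV), -0.064 to 0.0038 (deprivation, KO) and -0.108 to -0.0561 (interaction). Those of cytosolic genes ran from -0.0196 to 0.0579 (KO against EV, deprived), 0.494 to 0.577 (deprivation, KO) and -0.0935 to -0.0102 (interaction).

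Over all genes, KO against EV gave 505 higher and 441 lower in regular medium, but 214 and 219 without the variance trend and 99 to 703 and 69 to 711 with a library left out. Under deprivation it gave 1181 and 1380, or 450 to 1396 and 393 to 1662 with a library left out. The interaction gave 301 and 262, or 152 and 71 without the trend and 102 to 889 and 45 to 690 with a library left out. The cause was not tested.

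No paired analysis was possible because the columns carry no replicate numbers. The planned count tests on recovered reads (edgeR and DESeq2) were not run, since the deposited unit is log2.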
